A study of Rattus norvegicus with 6 samples.

Results

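Spi1, Irf8, Irf5, Runx1, Ikzf1, Cebpa and Cebpb encode transcription factors of the myeloid lineage, which in the brain is represented chiefly by microglia. They were taken by gene name, with older names resolved through the accession in the array files (Spi1 is listed there as Sfpi1), and not by their values. All 7 genes were on the array, each with 1 probe printed in 1 spot, of 17506 named genes and 30367 probes in all.

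Hippocampal RNA of male rats, labelled "Wister" under strain and Wistar in the description, was hybridised to 6 one-colour Agilent arrays. The study asked how expression runs over time in chronic cerebral hypoperfusion, in which the brain's blood supply stays low because both common carotid arteries have been tied off with silk under isoflurane. One array held the control pool (labelled 12 weeks old), and 1 array each held a pool taken after occlusion, at day 21, 35, 45, 55 or 70 (labelled 13, 14, 15, 16 and 17 weeks old in that order). These ages do not rise as the days do, so the age of the pools is uncertain, and the sources used here do not say how many rats each pool holds or whether controls had sham surgery. Hippocampal neuron markers and astrocyte markers were well above background on all 6 arrays, 8 of 8 and 7 of 7 genes. Each array measured 12683 to 13742 genes well above background, with 75th percentiles of 1243 to 1504 intensity units. The control, day 21 and day 35 arrays share a slide and the day 45, 55 and 70 arrays share the other, so for the 3 later days time and slide cannot be told apart in any difference from control. With 1 array of pooled RNA per group there is no test and no error between animals. The error after a value is the scanner software's own error for that spot, carried into log2 units for a difference, and covers the measurement of the spot only.

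PU.1, the product of Spi1, is an ETS-family factor that opens and marks the regulatory regions of macrophages and microglia, and these cells do not form without it. IRF8 binds composite sites together with PU.1 and is itself induced by interferon gamma, while IRF5 acts below Toll-like receptors and drives inflammatory cytokine genes. RUNX1 and Ikaros, the product of Ikzf1, act earlier in blood formation and remain in mature cells, RUNX1 being known from the amoeboid microglia of development. C/EBP alpha is needed for the step to granulocyte and monocyte progenitors, whereas C/EBP beta is a factor of emergency blood formation and of inflammatory gene expression that is also made by many cells outside the lineage.

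Promoter sequences from RefSeq (assembly GRCr8) matched 6 of the 7 genes. The 250 bases before the start of Irf8 and Cebpb are shown because Irf8 was well above background on the day 21 array alone and Cebpb on all 6 arrays, and because the matches to signal-response motifs described here lie in them. In the Irf8 sequence, chr19:65699034-65699283 on the plus strand, capitals mark 2 matches to the gamma-activated site TTCNNNGAA and a TATA box. In the Cebpb sequence, chr3:176816755-176817004 on the plus strand, capitals mark 3 matches to the short cyclic AMP response element TGACG, the first of them on the minus strand, and a TATA box.
Irf8: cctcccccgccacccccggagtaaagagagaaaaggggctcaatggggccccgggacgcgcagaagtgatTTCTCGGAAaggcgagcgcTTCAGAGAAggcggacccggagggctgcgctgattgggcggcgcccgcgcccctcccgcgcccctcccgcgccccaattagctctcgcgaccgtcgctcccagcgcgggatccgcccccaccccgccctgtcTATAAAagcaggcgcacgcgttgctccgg
Cebpb: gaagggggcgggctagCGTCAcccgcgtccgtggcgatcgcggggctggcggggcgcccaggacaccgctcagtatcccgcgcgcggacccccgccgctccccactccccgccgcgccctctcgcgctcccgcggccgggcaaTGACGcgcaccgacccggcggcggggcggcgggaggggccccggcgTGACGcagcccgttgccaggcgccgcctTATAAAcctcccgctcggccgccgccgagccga

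The gamma-activated site matches of Irf8 lay 180 to 172 and 161 to 153 bases before the start, and its TATA box 29 to 24 bases before it. In Cebpb the TGACG matches lay 234 to 230, 107 to 103 and 61 to 57 bases before the start, and the TATA box 33 to 28. Cebpa had a TATA box (TATAAA) at 35 to 30 bases. On either strand, TTCNNNGAA occurred in 7.67% of the 33469 promoters of the same length, TGACG in 18.2% and TATAAA in 12.9%. The core PU.1 site AGGAAGT and the C/EBP site TTGCNNAA occurred in 7.08% and 9.22% of promoters and in none of the 6 windows of these genes. These 5 motifs, which do not overlap one another here, were picked after the promoters had been read, so the matches describe the letters and are neither sites nor causes.

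At day 21 after occlusion Spi1, Irf8, Irf5 and Runx1 were each at least 2-fold above the control, while Ikzf1, Cebpa and Cebpb differed from it by 1.19-fold or less. Thus 4 of 7 genes were called higher, against 3.61% of the 13919 genes compared, and 0 of 7 lower, against 1.88%. By mean signal Spi1 and Irf8 belong to the dimmest of 3 equal groups of genes, of which 9.45% were called higher, and Irf5 and Runx1 to the middle group, of which 3.62% were. At day 35 none of the 6 genes that could be compared (Irf8 could not) was 2-fold from control, and at later days the only one of the 6 called was Ikzf1, which was lower. The median difference of the 7 was 1.27 log2 units at day 21, beside -0.07 over all genes. In bulk RNA a change in the number of cells of a type cannot be told apart from a change in RNA per cell.

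**Figure D1:**
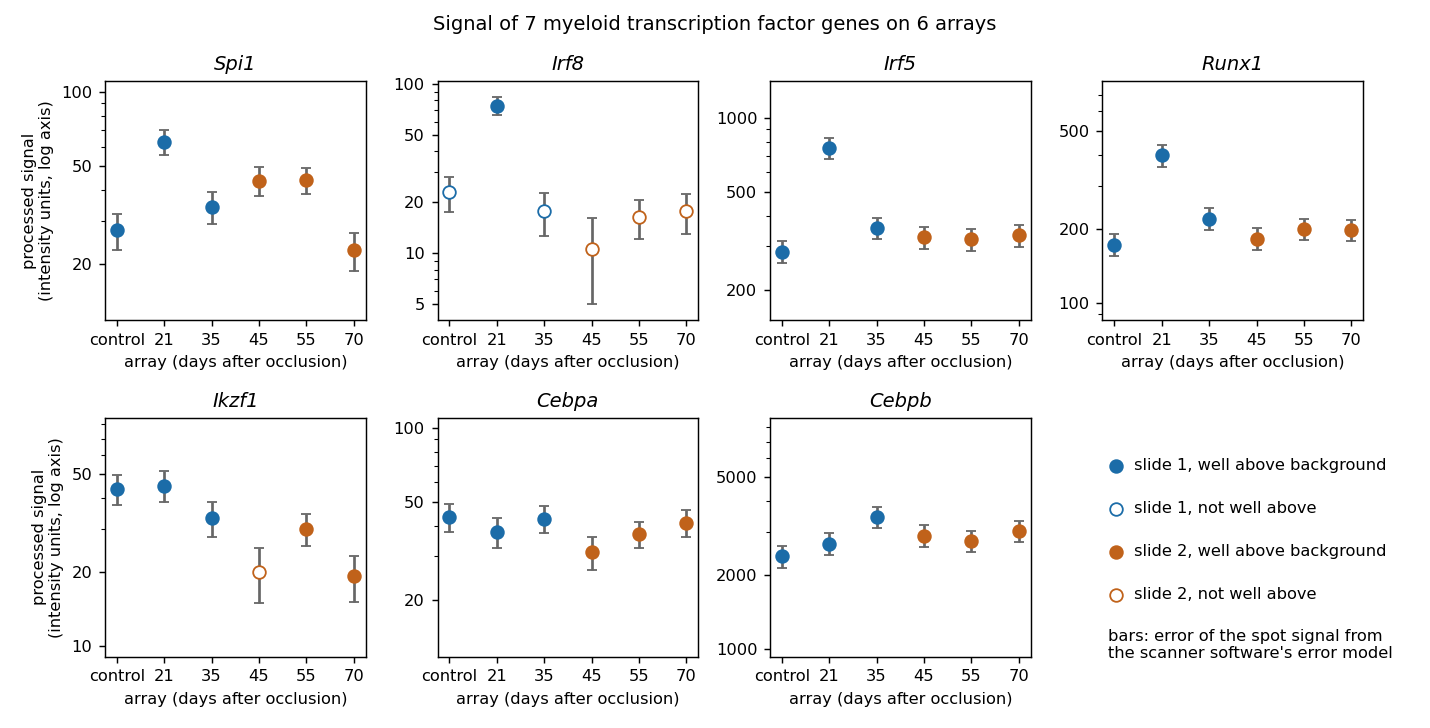
Processed signal (intensity units, log axis) of each of the 7 genes on the 6 arrays, coloured by slide. Bars are the error of the spot signal from the scanner software's error model, and open circles were not well above background. Spi1, Irf8, Irf5 and Runx1 are highest on the day 21 array, Ikzf1 falls off on the day 45 and day 70 arrays, and Cebpa and Cebpb vary little.

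Spi1 was read at chr3:75475250-75475309 (build rn4, plus strand). Its signal was 27.4 ± 4.50 intensity units on the control array, 62.6 ± 7.34 at day 21, 34.1 ± 5.00 at day 35, 43.6 ± 5.94 at day 45, 43.7 ± 5.28 at day 55 and 22.7 ± 3.99 at day 70. Day 21 was the highest of the 6, days 45 and 55 lay between it and the rest, and day 70 was the lowest. The day 21 value was 2.42-fold the control, a log2 difference of 1.27 ± 0.29, and 344 of 13919 genes had a larger one. In order of scaled level, the step from day 55 up to day 21 was 0.57 ± 0.24, and the steps between day 45 and day 55 and between control and day 35 were smaller than their errors. Against the control, days 45 and 55 stood at 0.66 ± 0.31 and 0.70 ± 0.29 and day 70 at -0.35 ± 0.35. Spi1 is a dim probe, and its day 21 difference fell below 2-fold with normexp background correction (0.57) and in the values the authors deposited (0.83). Among the 3 arrays of the second slide Spi1 was 2.01-fold higher at day 45 than at day 70 (1.01 ± 0.32 log2 units) and 2.08-fold higher at day 55 than at day 70 (1.06 ± 0.31). Both differences lie just past 2-fold and fell below it with normexp correction (0.33 and 0.43) and in the authors' values (0.47 and 0.45), the second also with quantile normalization (0.83). Only Spi1 passed 2-fold among the 5 and 6 genes that could be compared, against 0.974% and 0.962% of all genes and 6.92% and 5.21% of the dimmest genes, when all are split by mean signal into 3 groups of equal size. None was lower, against 0.989% and 0.874%.

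Irf8, the partner of PU.1, was read at chr19:51116671-51116730 (rn4, plus strand), and its promoter is printed above. Its signal was 22.9 ± 5.37 on the control array, 74.3 ± 8.95 at day 21, 17.7 ± 5.09 at day 35, 10.5 ± 5.51 at day 45, 16.4 ± 4.27 at day 55 and 17.7 ± 4.74 at day 70. It was well above background at day 21 only, and the other 5 values lie within error of their neighbours in order. The day 21 signal of Irf8 was 3.43-fold the control signal, a log2 difference of 1.78 ± 0.38, and 172 genes had a larger difference or bound. As the control signal was not well above background, this value is uncertain and is not a lower limit. No fold is given at the other days, where neither array measured it. With normexp correction the day 21 difference was 0.71, and requiring both arrays to be well above background removes the gene.

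Irf5 was read at chr4:56418353-56418412 (rn4, plus strand). Its signal was 285 ± 28.9 on the control array, 752 ± 75.4 at day 21, 356 ± 35.9 at day 35, 326 ± 33.1 at day 45, 320.3 ± 32.3 at day 55 and 332 ± 33.5 at day 70. Day 21 stood alone, 1.28 ± 0.20 log2 units over the next array, and the other 5 arrays followed one another by less than the error, within 0.20 from lowest to highest. The day 21 signal was 2.79-fold the control (1.48 ± 0.21), and 253 genes had a larger difference. From day 35 to day 70 the differences from control were 0.12, 0.18, 0.20 and 0.14.

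Runx1 was read at chr11:32623591-32623650 (rn4, minus strand). Its signal was 173 ± 17.7 on the control array, 398 ± 40.0 at day 21, 219.8 ± 22.3 at day 35, 182 ± 18.7 at day 45, 200.0 ± 20.2 at day 55 and 198 ± 20.0 at day 70. As for Irf5, day 21 was apart from the rest, by 1.04 ± 0.21 over day 55, and the other 5 arrays spanned 0.24 with every step smaller than its error. Runx1 was 2.44-fold above the control at day 21 (1.28 ± 0.21), with 334 genes showing more. Its later differences were 0.15, 0.06, 0.24 and 0.11 at days 35, 45, 55 and 70. Irf5 and Runx1 kept their day 21 side of 2-fold under all 9 other processing choices, at 1.35 to 1.53 and 1.07 to 1.36. Of these, keeping outlier spots, the mean of all probes and the filter on both arrays could not change either value.

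Ikzf1, the Ikaros gene, was read at chr14:92656740-92656799 (rn4, plus strand). Its signal was 43.7 ± 6.12 on the control array, 45.1 ± 6.34 at day 21, 33.2 ± 5.34 at day 35, 20.1 ± 5.07 at day 45, 30.1 ± 4.43 at day 55 and 19.3 ± 4.12 at day 70. The control and day 21 arrays were highest and within error of each other, and days 45 and 70 were lowest, day 45 being not well above background. The difference from control was 0.12 ± 0.29 at day 21, -0.59 ± 0.31 at day 35 and -0.51 ± 0.29 at day 55. Ikzf1 was 2.2-fold lower at day 45, at -1.14 ± 0.42, a difference from a signal not well above background. At day 70 it was 2.4-fold lower, at -1.26 ± 0.37. Of all genes compared, 5.78% were called lower at day 45 and 6.76% at day 70, and in the dimmest of the 3 groups by mean signal, to which Ikzf1 belongs, 21.0% and 26.1%. The call was lost under normexp correction (-0.35 at day 45 and -0.45 at day 70), quantile normalization (-0.45 and -0.63), the authors' values (-0.26 and -0.31) and the mean of the other 5 arrays as baseline (-0.69 at day 45, with no value at day 70). Requiring both arrays to be well above background leaves no value at day 45. Within the second slide day 55 exceeded day 70 by 0.75 ± 0.37, which is under 2-fold.

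Cebpa was read at chr1:87627393-87627452 (rn4, plus strand). Its signal was 43.3 ± 5.49 on the control array, 37.8 ± 5.31 at day 21, 42.7 ± 5.52 at day 35, 31.3 ± 4.87 at day 45, 36.9 ± 4.62 at day 55 and 41.1 ± 5.14 at day 70. No step in its order exceeded the error. The differences from control were -0.12 ± 0.27, -0.22 ± 0.26, -0.49 ± 0.29, -0.20 ± 0.26 and -0.16 ± 0.26 in order of day. At days 45, 55 and 70 quantile normalization and the authors' values put them above 0. The mean of the other 5 arrays as baseline did so at day 70 (0.05) and day 21 (0.09). At day 21 normexp correction (0.01) and the authors' values (0.05) did so too.

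Cebpb was read at chr3:158827761-158827820 (rn4, plus strand), and its promoter is printed above. Its signal was 2388 ± 239 on the control array, 2694 ± 269 at day 21, 3452 ± 345 at day 35, 2901 ± 290 at day 45, 2757 ± 276 at day 55 and 3035 ± 304 at day 70. The control was the lowest array, and the 5 arrays after occlusion followed one another by less than the error. Their differences from control lay between 0.24 and 0.33, each with an error of 0.20, the largest at day 35.

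**Figure D2:**
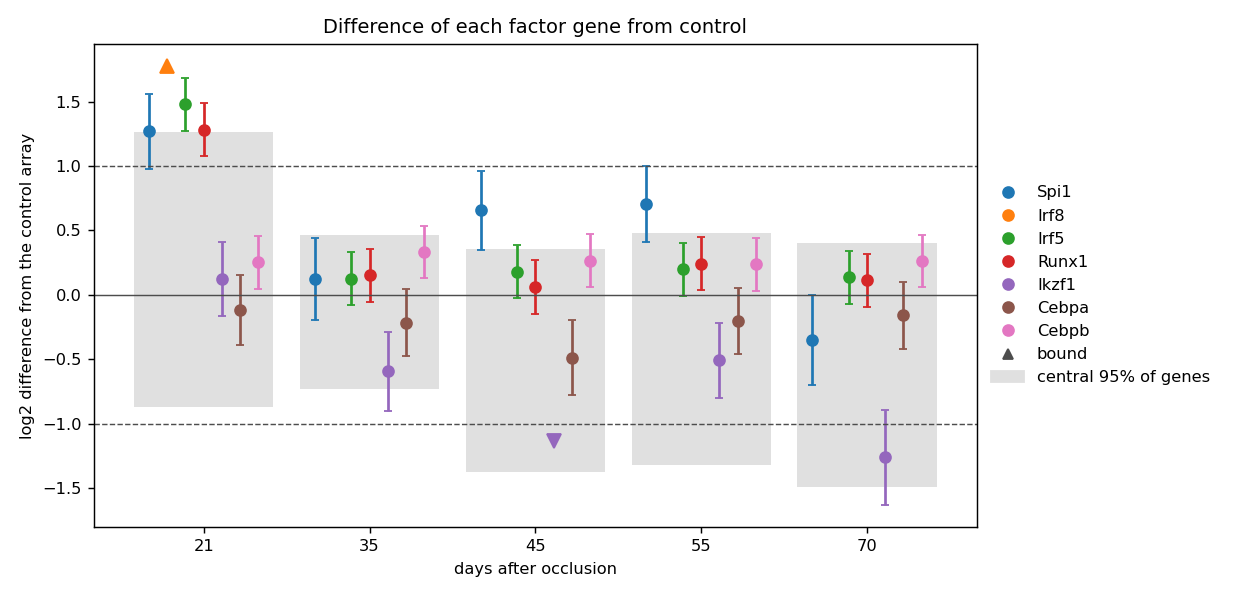
Log2 difference of each gene from the control array by day. Circles carry the combined error of both spots, dashed lines mark 2-fold, and grey bands hold the central 95% of all genes compared. Triangles (bound in the legend) mark differences where 1 of the arrays was not well above background. For these genes they are plain differences of the signals and not limits. At day 21 Spi1, Irf8, Irf5 and Runx1 lie at or above the upper edge of the band (1.26), and at days 45 and 70 Ikzf1 lies inside it.

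The step from day 21 to day 35 could be read within 1 slide. Day 21 exceeded day 35 by 1.15 ± 0.27 log2 units for Spi1, 1.35 ± 0.21 for Irf5 and 1.13 ± 0.21 for Runx1. For Irf8 the difference was 2.34 ± 0.45, or 5.08-fold, with the day 35 signal not well above background. At least 2-fold higher were 4 of 7 genes, against 4.5% of all genes compared, and 0 of 7 were lower, against 1.04%. Ikzf1 stood between, at 0.72 ± 0.31, and Cebpa (0.10 ± 0.28) and Cebpb (-0.08 ± 0.20) differed by less than the error. Spi1, Irf8 and Runx1 fell below 2-fold with normexp correction (0.62, 0.83 and 0.94), and Spi1 and Runx1 in the authors' values (0.66 and 0.96). This comparison and that of day 21 with the control share the day 21 array.

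Against the control, 0 of the 6 genes compared at day 35 were called in either direction, where 0.452% of genes were higher and 1.13% lower. At day 45 it was 0 higher (background 0.596%) and 1 lower (5.78%), at day 55 0 higher (0.652%) and 0 lower (4.98%), and at day 70 0 higher (0.663%) and 1 lower (6.76%). Their medians at days 35, 45, 55 and 70 were 0.12, 0.12, 0.22 and -0.02, and those of all genes between -0.06 and -0.04. All 5 comparisons share the control array.

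Near relatives of these genes mostly lay within 2-fold of control at day 21, as did most genes. Over all genes compared at that day, 3.61% were at least 2-fold higher and 1.88% lower. Of 20 relatives on the array (other IRF, C/EBP, RUNX and Ikaros genes, the RUNX partner Cbfb and the PU.1 relatives Spib and Spic), 15 could be compared, 1 was at least 2-fold higher and 0 lower, with a median of 0.33. The higher one was Irf7, the master factor of type I interferon genes, at 1.32, and it stood at -0.50, 0.04, -0.40 and -0.23 at the later days. Runx2 stood at 0.61, Cbfb at 0.59, the interferon-induced Irf1 at 0.49, Cebpg at 0.44, the acute-phase factor gene Cebpd at 0.42 and the stress factor gene Ddit3 at 0.33. Irf3, Irf9, Cebpz, Runx1t1 and Ikzf5 lay between 0.01 and 0.07, and Ikzf2 at -0.13, while Irf2, Irf4, Cebpe and Spib were not well above background on any array. Spic, the factor gene of iron-recycling macrophages, was bright at day 21 only, at a bound of 0.54. Ikzf2 was lower by bounds of -1.32, -1.69 and -1.65 at days 45, 55 and 70, all on the second slide. Ikzf3 was bright on the day 35 array alone, from 1 probe, at a bound of 3.12.

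Among 46 other macrophage and blood lineage factors on the array, 6 of 39 compared were at least 2-fold higher at day 21 (3.61% of all genes) and 0 lower (1.88%), with a median of 0.23. The blood-forming factor gene Lyl1 was higher by 1.41, Batf by 1.13 and the stress-induced Atf3 by 1.11. Tfec and Gata1 were bright on the day 21 array alone, at bounds of 4.40 and 3.25, each from 1 probe. Sall1, a factor gene of microglial identity, stood at 0.93 and Mef2c, another microglial factor gene, at -0.13. At day 45, on the second slide, 2 of 36 compared were called lower, against 5.78% of all genes, and 0 higher (0.596%). The 2 were Etv6, lower by 1.05, and Atf3, lower by 1.10.

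Many genes known to lie under these factors were higher at the same time. Of 25 myeloid genes under PU.1 compared, 20 were at least 2-fold higher at day 21 (3.61% of all genes) and 0 lower (1.88%), with a median of 1.50. Among them were the lysosomal gene Cd68 (3.93), the IgG receptor gene Fcgr2b (2.92), the phagocyte oxidase gene Ncf1 (2.53), the integrin gene Itgb2 (2.39), the phosphatase gene Ptprc (2.25) and the tetraspanin gene Cd53 (2.12). Csf1r, the receptor gene on which microglia depend, was at 0.44. At day 35 the median of the list was 0.00, with 0 of 23 called in either direction.

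Of 20 interferon and IRF target genes, 10 were at least 2-fold higher at day 21 (3.61% of all genes) and 0 lower (1.88%), with a median of 1.01. Cd74, the invariant chain gene, was higher by 3.31, the chemokine gene Cxcl10 by 3.24, Rsad2 by 2.11, Isg15 by 1.71 and Bst2 and Gbp2 by 1.68. At day 35, 18 of 20 were below the control, with a median of -0.31 and none 2-fold lower. Over all genes compared at day 35, 41.7% were above the control. At day 45, 1 of 20 was called higher (0.596% of all genes), Cd74 at 1.54, and 0 lower (5.78%). Irf5 stood at 0.12 ± 0.21 at day 35, a difference smaller than its error.

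C/EBP target genes were split. Of 19 compared at day 21, 7 were at least 2-fold higher (3.61% of all genes) and 0 lower (1.88%), with a median of 0.72. Cebpa itself stood at -0.12 and Cebpb at 0.25. The complement gene C3 was higher by 2.89 and the iron-binding lipocalin gene Lcn2 by 2.50, and Ccl2, a monocyte chemokine gene, was at a bound of 3.90. At days 45, 55 and 70, all on the second slide, 2 of 15, 3 of 15 and 3 of 14 compared were called lower. The shares over all genes were 5.78%, 4.98% and 6.76%. Called higher were 0, 0 and 1, against 0.596%, 0.652% and 0.663%. Ptges was lower by 2.01, 2.31 and 1.86 on these days and Socs3, an inhibitor of cytokine signalling, by 1.33, 1.31 and 1.70. Serpina3n stood at -0.98, -1.33 and a bound of -1.82. The neutrophil enzyme gene Mpo was higher by 2.81 at day 70 and by 1.46 at day 21. For the list the medians at days 35, 45, 55 and 70 were -0.03, -0.16, -0.05 and 0.00.

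Among 19 signals that act on these factors, 1 was at least 2-fold higher at day 21 (3.61% of all genes) and 0 lower (1.88%), with a median of 0.13. It was Tgfb1, the cytokine gene that maintains microglia, at 1.36, with its receptor gene Tgfbr1 at 0.90. The adaptor gene Myd88 stood at 0.80, its kinase gene Irak4 at 0.58, and the growth factor genes Csf3 and Csf1 at 0.80 and 0.74. Tlr7, Tlr8 and Tlr9, receptors above IRF5, were not well above background on any array.

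**Figure D3:**
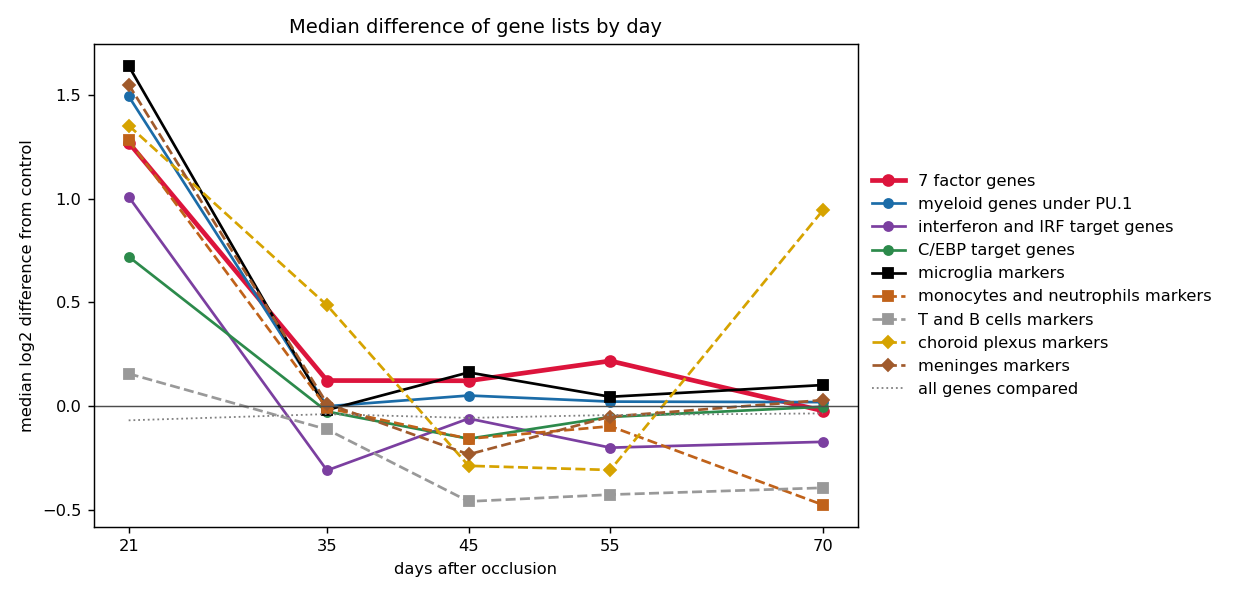
Median log2 difference from control by day for the 7 factor genes, the lists of genes under them, and marker lists of microglia, blood cells and neighbouring tissue, with the median of all genes dotted. All lists drawn but that of T and B cells lie at 0.72 or above at day 21 and, except for choroid plexus, lie within 0.5 of control afterwards. The choroid plexus median is 0.49 at day 35 and 0.94 at day 70, with 2 of 10 genes below control on each of these days. The median of the factor genes compared is 0.12 and -0.02 there.

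Markers of other cells moved at day 21 too, when 3.61% of all genes were called higher and 1.88% lower. All 17 microglia markers were above the control, 12 by 2-fold or more, with a median of 1.64, and their summed level, in units of the array's 75th percentile, was 105 at day 21 and 37.6 to 44.2 on the other 5 arrays. Of the PU.1 list 23.3% are also microglia markers, which is 41.2% of that marker list. Trem2 stood at 2.52 and C1qb at 1.94, and of the genes typical of resting microglia P2ry12 stood at 1.17, Tmem119 at 0.24 and Cx3cr1 at 0.07. Monocyte and neutrophil markers had 5 of 7 at least 2-fold higher and a summed level of 0.528 at day 21 against 0.316 to 0.421 elsewhere. The 5 were Mpo (1.46), Fcnb (1.42), Csf3r (1.39), S100a8 (a bound of 1.28) and Plac8 (1.03). The rest of those compared were S100a9, at 0.29, and Camp, which was lower, at -0.63. Ccr2, Elane, Mmp8 and Ngp were not well above background on any array. T and B cell markers had 0 of 7 called in either direction at day 21, and their summed level of 0.725 was near the control's 0.707. On the 3 later arrays, where Ikzf1, a factor gene of lymphocytes as well, was below control, that sum was 0.405 to 0.523, and without Cd3d 0.278 to 0.390 beside 0.388 in the control. At day 35, with Ikzf1 at -0.59, the sum was 0.701. The part of lymphocytes in the Ikzf1 values was not tested. Markers of brain border macrophages had 0 of 3 called, with Pf4 at 0.89 and Lyve1 at 0.73. Astrocyte markers were above the control in 6 of 7 genes at day 21, with Gfap at 1.02 and a sum of 69.1 against 50.5 to 55.6 on the other arrays. Hippocampal neuron markers were below it in 6 of 8, with 0 of 8 called in either direction and a sum of 24.6 against 29.1 to 31.7. Of all genes compared at day 21 39.5% were above the control, so most genes were below it too.

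Marker genes of tissue around the hippocampus were also higher on the day 21 array, where 3.61% of all genes were called higher. Meninges markers had 6 of 9 at least 2-fold higher, with a summed level of 8.65 against 2.66 to 2.98 on the other arrays. Choroid plexus markers had 6 of 10 higher at day 21. Their sum is mostly the single gene Ttr, which was saturated at day 21, so that sum is a lower limit of 54.6, beside 28.8 at day 35, 46.8 at day 70 and 4.73 to 5.03 on the other 3 arrays. Without Ttr it was 3.97 at day 21, 2.91 at day 35 and 3.47 at day 70, against 1.95 to 2.14. Spi1, Irf5 and Runx1 stood at 0.12, 0.12 and 0.15 on the day 35 array and at -0.35, 0.14 and 0.11 on the day 70 array. The part of microglia, blood cells, astrocytes, neurons, meninges and choroid plexus in the day 21 values of the 7 genes was not tested.

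The courses of single genes could be set beside all others by the root mean square distance of the 5 differences from control, over 12404 genes well above background on all 6 arrays. Nearest to Irf5 were the protease inhibitor gene Serpinb1a (0.036 log2 units), Lyl1 (0.063) and the annexin gene Anxa3 (0.070). Nearest to Runx1 were the galectin-1 gene Lgals1 (0.072), Lyl1 (0.073) and Lhfpl2 (0.077), and Irf5 and Runx1 were 0.10 apart. Spi1 had no neighbour as close, with Plac8, a gene of myeloid cells, at 0.22, Baz1a at 0.27 and MGC93861 at 0.30, and was 0.39 from Irf5. Plac8 stood at 1.03, -0.01, 0.50, 0.72 and 0.03 over the 5 days. Cebpa lay nearest to Rita1 (0.035), the lymphocyte phosphatase gene Ptpn22 (0.035) and Ube2q2 (0.046), and Cebpb to Ccdc163 (0.043), the secretory stress factor gene Xbp1 (0.050) and Cwc15 (0.050). Irf8 and Ikzf1 were not well above background on all arrays and were left out. These distances describe 6 arrays that all share the control.

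**Figure D4:**
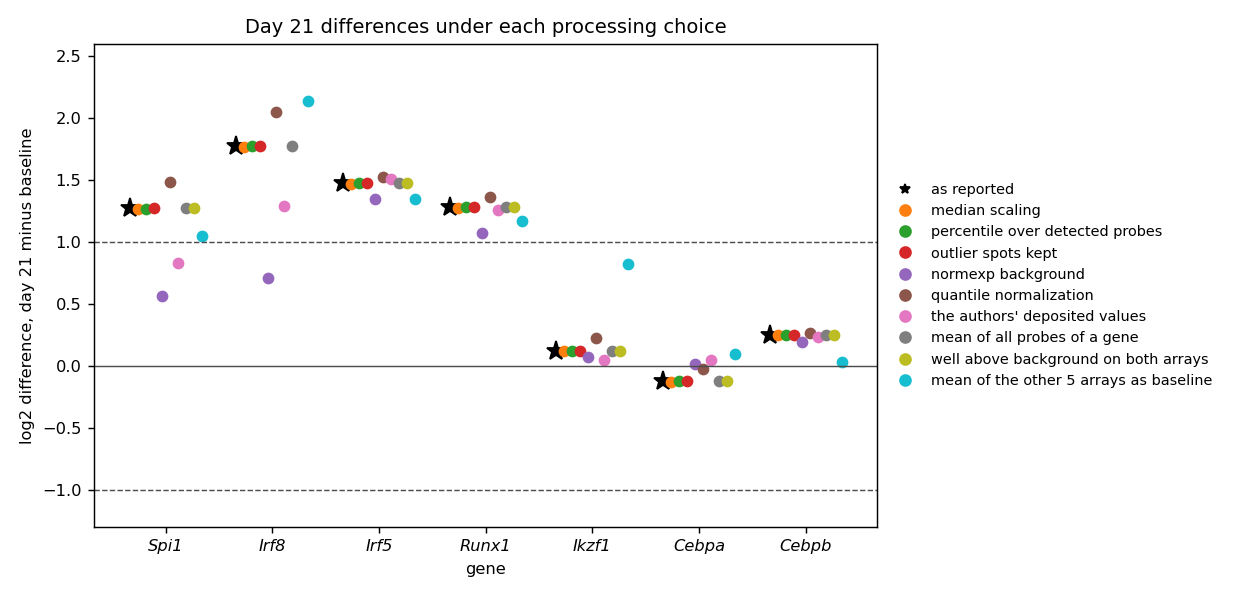
Log2 difference at day 21 for each gene as reported (star) and under 9 other processing choices (circles), with 2-fold marked by dashed lines. Irf5 and Runx1 stay above 2-fold under every choice, Spi1 crosses below it under normexp correction (0.57) and in the authors' values (0.83), and Irf8 under normexp correction (0.71). Keeping outlier spots and the mean of all probes could not change any of these genes, and the filter on both arrays could only remove a value.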

How the data were processed

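The authors deposited 1 scanner file per array. Per the file headers the intensity of each spot is the processed signal of Agilent Feature Extraction 10.7.3.1 on design 028282, background-subtracted, with probe positions in build rn4. A deposited table of intensity values, of unstated making, served as an alternative. The labels name Cy5, but the files hold the green channel, which was used.

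Spots marked as outliers were left out (346 to 470 an array), spots of a probe averaged, and log2 signals scaled by each array's 75th percentile. Probes were named through RefSeq GRCr8 (17328 by accession, 2635 by symbol, 718 by synonym, 183 by the name in the file, 9503 unnamed), and a gene took its brightest probe. A gene was compared where it was well above background on 1 array of the pair. On a dimmer array that was not, the lowest signal well above background, or the probe's own if higher, gave a bound. Where the probe's own signal was used, as for Irf8 and Ikzf1, the value is the plain difference of the signals and not a limit. A gene was called at 2-fold. Errors are the deposited spot errors, an intensity per the file headers, divided by the signal.

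The members and lists were chosen with earlier results of these data known. Named beyond the 7 genes are, by rule, up to 6 genes a list with the largest difference, the relatives, and the 3 nearest genes in course; other genes named were chosen after their values were seen, and some genes of the lists are not reported here by name. Use of the spot error, the comparisons among days 45, 55 and 70, the split into 3 groups by mean signal and the 5 motifs were likewise chosen after the data had been seen. The counting was tested on simulated data, with changes put only into genes brighter on the control array than Spi1, Irf8, Ikzf1 and Cebpa. That test therefore does not cover calls on these dim genes. Python 3.11.15, numpy 2.4.6, pandas 2.3.3, R 4.3.3 and limma 3.58.1 were used. With 1 array per group the number of arrays limits the precision, and spots of probes printed several times differed by a median SD of 0.051 to 0.073 (log2). The alternatives were median scaling, a percentile over detected probes, outlier spots kept, normexp background (offset 50), quantile normalization, the deposited values, the mean of all probes, a filter on both arrays and the mean of the other 5 arrays as baseline.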

Additional observations from a re-analysis of the deposited data

How the results depend on the processing

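Against the control 9 alternatives were run and within a slide 8, those of days 45 and 55 against day 70 chosen after seeing the data. Under these, no difference of the 7 genes past 2-fold changed direction where a value could be had. Of 138 counts of genes called among the 7, 116 were equal to the reported one, 20 lower and 2 higher. With normexp correction the count higher at day 21 went from 4 to 2 and that of day 21 over day 35 from 4 to 1, the latter being 2 in the authors' values. Day 21 gave 3 with the authors' values, and with the filter on both arrays it gave 3 over control and 3 over day 35. The 1 gene lower at day 45, Ikzf1, became 0 with normexp, quantile normalization, the authors' values, the filter on both arrays and the baseline of the other 5 arrays, and the 1 gene lower at day 70 became 0 under the same choices but the filter. Quantile normalization raised the count higher from 0 to 1 at days 45 and 55, through Spi1 (1.32 and 1.15). The 1 gene higher at day 45 and at day 55 than at day 70, Spi1, became 0 with normexp and the authors' values, and at day 55 also with quantile normalization. The mean of all probes and the keeping of outlier spots cannot change these genes, which have 1 probe each and no outlier spot. The filter on both arrays can only remove a gene. Part of the equal counts was therefore fixed in advance.

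Over all genes, normexp correction cut the calls higher and lower at days 21, 35, 45, 55 and 70 from 502 and 262, 63 and 157, 82 and 795, 91 and 695, and 92 and 939 to 240 and 29, 13 and 37, 17 and 108, 30 and 77, and 39 and 130. Quantile normalization gave 619 and 252, 119 and 133, 217 and 279, 205 and 398, and 254 and 373, and the authors' values 371 and 115, 38 and 69, 69 and 147, 75 and 172, and 74 and 194. The filter on both arrays left 377 and 141, 23 and 84, 31 and 467, 49 and 447, and 32 and 563, by removing genes bright on 1 array. The baseline of the other 5 arrays gave 684 and 12, 151 and 21, 85 and 143, 71 and 38, and 93 and 95. Median scaling moved the median of all genes at day 45 from -0.06 to 0.06. For day 21 against day 35 the counts of 618 and 143 became 302 and 18 with normexp, 387 and 70 in the authors' values and 461 and 74 with the filter. For days 45 and 55 against day 70 the counts of 127 and 129, and 131 and 119, became 31 and 46, and 38 and 43 with normexp, 63 and 68, and 51 and 84 in the authors' values and 49 and 48, and 53 and 46 with the filter, and quantile normalization gave 126 and 109, and 77 and 142. Apart from the filter, the cause of these shifts was not tested.

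Depth of signal limits Spi1, Irf8, Ikzf1 and Cebpa, which are near background, and none of the 7 has a second probe. No paired analysis was possible because each group has 1 array.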
